A study of Equus caballus with 93 samples.

Results

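Synovial fluid cells were compared at week 6 between horses whose injured joint had received a gel and horses whose injured joint had received saline. The comparison takes every library labelled as week 6 synovial fluid, which gives 16 of the 93 samples of the series, 8 iPAAG and 8 Control. All 16 horses were mares or geldings aged 2 to 5 years with an osteochondral fragment made surgically in 1 middle carpal joint, so Control joints carried the injury too. On day 14 the operated joint was injected with 2 mL of either phosphate buffered saline (Control) or 2.5% injectable polyacrylamide hydrogel (iPAAG, sold as Arthramid). Every horse was exercised 5 days per week from week 2 to week 10. Week 2 libraries of the same horses, from fluid drawn around the time of the injection, served as the reference. Tests of genes compared group means of weeks 2 and 6. A horse whose library at either week was left out still counted at the other. Which of the draw and the injection came first at week 2 is not in the labels. Elapsed time and exercise changed together with treatment between week 2 and week 6 and cannot be told apart within an arm.

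Synovial fluid is the filtrate of plasma, thickened by hyaluronan, that lubricates a joint. Its cells are mainly monocytes, macrophages, lymphocytes and, in inflamed joints, neutrophils, with some cells shed from the lining of the joint. Osteochondral fragments release cartilage and bone debris into that fluid and are used in horses to model osteoarthritis after injury. Polyacrylamide hydrogel is a non-degradable gel that becomes incorporated in the synovial membrane after injection, and it is used against joint pain and lameness. The deposited genes carry Ensembl horse identifiers without names, so the labelled cell type could not be checked against marker genes, and no gene list by function could be counted. The genes below are described by identifier, level and behaviour. In a bulk library of such cells, fewer cells of a type and less RNA per cell cannot be told apart.

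The week 6 libraries were divided into 2 kinds at a set threshold, and each arm held both. The measure that separates them is the spread, the SD of log2 CPM taken across the 15838 genes of 1 library, where CPM is a gene's reads relative to the size of its library. A wide library, with a spread of 2 or above, had genes at very different levels, and a narrow library, below 2, had its genes drawn towards one level. Among iPAAG horses the week 6 spread was 3.43 in horse 3, 3.31 in horse 5, 3.68 in horse 12 and 3.27 in horse 14. It was 1.39 in horse 6, 1.30 in horse 7, 1.34 in horse 8 and 1.64 in horse 17. Among Control horses it was 3.58 in horse 1, 3.67 in horse 11, 3.71 in horse 15, 2.95 in horse 13, 2.67 in horse 16 and 2.44 in horse 10. It was 1.71 in horse 2 and 1.497 in horse 9. Thus 4 of 8 iPAAG and 2 of 8 Control libraries were narrow, a difference that did not pass a two-sided Fisher's exact test (p = 0.608). iPAAG libraries had a mean spread of 2.42 ± 1.08 (SD, n = 8) against 2.78 ± 0.86 (SD, n = 8) for Control libraries, with overlapping ranges (exact permutation test, two-sided, p = 0.470; Benjamini-Hochberg adjusted over 8 such tests, p = 0.759).

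At week 2 only 1 library of each arm was narrow, and neither belonged to a horse that was narrow at week 6. Control horse 10 went from 1.34 at week 2 to 2.44 at week 6, and iPAAG horse 14 from 1.68 to 3.27. The 4 iPAAG horses that were narrow at week 6 had started at 3.08 (horse 6), 3.97 (horse 7), 3.67 (horse 8) and 2.49 (horse 17). Control horses 2 and 9 had started at 3.54 and 3.65. Only 3 iPAAG horses (3, 5 and 12) and 5 Control horses (1, 11, 13, 15 and 16) were wide at both weeks. The mean change in spread was -0.56 ± 1.61 (SD, n = 8) in iPAAG against -0.46 ± 1.07 (SD, n = 8) in Control horses. It rose in 3 of 8 iPAAG and 4 of 8 Control horses, and the arms did not differ beyond the spread between horses (exact permutation test, p = 0.876, adjusted p = 0.876).

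**Figure D1:**
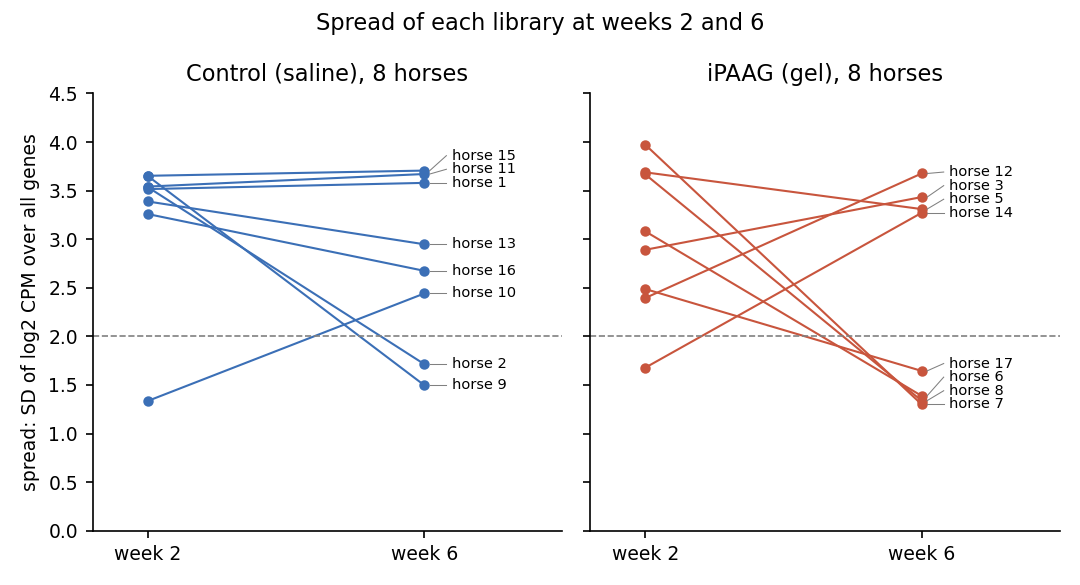
Spread (SD of log2 CPM over all genes, vertical axis) of the week 2 and week 6 libraries of each horse, with a line per horse and Control horses on the left; the dashed line marks a spread of 2. Horses cross the line in both directions and in both arms, and 4 iPAAG and 2 Control libraries lie below it at week 6.

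Narrow libraries were also shallow and had their reads spread over more genes. At week 6 the 6 narrow libraries had 2773237 to 9922735 reads in genes and the 10 wide libraries 16452685 to 29079455, with no overlap. The fewest genes that together held 50% of a library's reads numbered 1047 to 3481 in the narrow and 470 to 770 in the wide libraries. In a random draw of 1737741 reads, 15780 to 15814 genes were expected in a narrow library and 13295 to 15427 in a wide one. Depth and spread therefore moved together, and their separate parts in the results below were not tested. Some wide libraries shared traits of the narrow ones. At week 6, Control horses 10 and 16 had 15427 and 15094 expected genes. They had 11 and 20 genes without a read, against 4 to 45 in narrow libraries. At week 2, iPAAG horses 12 and 17 had spreads of 2.39 and 2.49, with 15509 and 15398 expected genes and 9 and 3 without a read. Between arms the reads averaged 11722869 ± 7915777 (SD, n = 8) in iPAAG against 17555923 ± 7839738 (SD, n = 8) in Control, with overlapping ranges (exact permutation test, p = 0.158, adjusted p = 0.421).

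The 10 genes with most reads held a smaller share of the library in iPAAG horses at week 6, without passing correction. The share was 7.71% ± 4.21 (SD, n = 8) in iPAAG against 11.1% ± 1.89 (SD, n = 8) in Control (exact permutation test, p = 0.0626, adjusted p = 0.303). From week 2 it moved by -3.49 ± 5.44 percentage points (SD, n = 8) in iPAAG against 0.947 ± 3.67 (SD, n = 8) in Control, rising in 2 and 6 horses (exact permutation test, p = 0.0758, adjusted p = 0.303). The low iPAAG values were those of narrow libraries, at 1.61% to 7.63%, while the 4 wide iPAAG libraries ranged from 9.76% to 13.1% and the 6 wide Control libraries from 10.7% to 14.0%.

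Week 6 libraries were described against week 2 by Pearson's r across the 15838 genes, which share depth and composition within a library. The 10 wide week 6 libraries had an r of 0.66 to 0.95 with their own horse's week 2 library (median 0.88), and the 6 narrow ones 0.25 to 0.88 (median 0.54). The lowest was iPAAG horse 7, at 0.25, whose spread had fallen the most. Control horse 1 was the only horse with an r to its own week 2 library (0.94) above that to each of the other 15 horses. Control horse 10 had the lowest r of the wide libraries, 0.66, against its narrow week 2 library.

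The narrow libraries differed most from the wide ones in genes of low level before surgery. Genes were put in 10 groups of equal size by their mean log2 CPM in Control horses at week 0, before surgery. In the group with the lowest levels, at -5.66 to -1.82 log2 CPM at week 0, the median gene stood at 3.40 to 4.36 log2 CPM in the 6 narrow week 6 libraries and at -4.89 to 1.56 in the 10 wide ones. In the fifth group the same medians were 3.78 to 4.09 and 3.31 to 3.59. In the group with the highest levels they were 5.42 to 7.12 in narrow and 7.74 to 8.26 in wide libraries. Over all genes the median was 4.33 to 4.47 log2 CPM in narrow and 3.83 to 4.11 in wide libraries. In 3 of the 4 narrow iPAAG libraries and in no narrow Control library, the median of the lowest group was above that of the fifth. The wide libraries were not alike either: Control horse 15 had the lowest of these medians and Control horse 10 the highest.

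The difference between arms at week 6 followed this gradient of abundance, and its slope turned when the narrow libraries were left out. With all 16 libraries the median log2 difference, iPAAG minus Control, fell from 0.99 in the lowest group through 0.12 in the fifth to -0.67 in the highest. With the 4 iPAAG and 6 Control wide libraries it was -0.98, -0.03 and 0.07 in the same groups. Across genes, the week 6 difference had a Pearson's r of -0.73 with the slope of each gene on spread, fitted in the 61 libraries of the other 4 weeks. Without the narrow libraries r was 0.45. The slope was fitted without terms for arm, week or horse. At weeks 0, 4, 8 and 10 the narrow libraries numbered 1, 4, 1 and 6 in iPAAG and 0, 0, 1 and 2 in Control horses. The slope can therefore hold differences between the same arms, and r cannot tell these from spread. The wide iPAAG libraries had a mean spread of 3.42 ± 0.18 (SD, n = 4) and the wide Control libraries 3.17 ± 0.55 (SD, n = 6), so the arms were still not matched in spread.

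**Figure D2:**
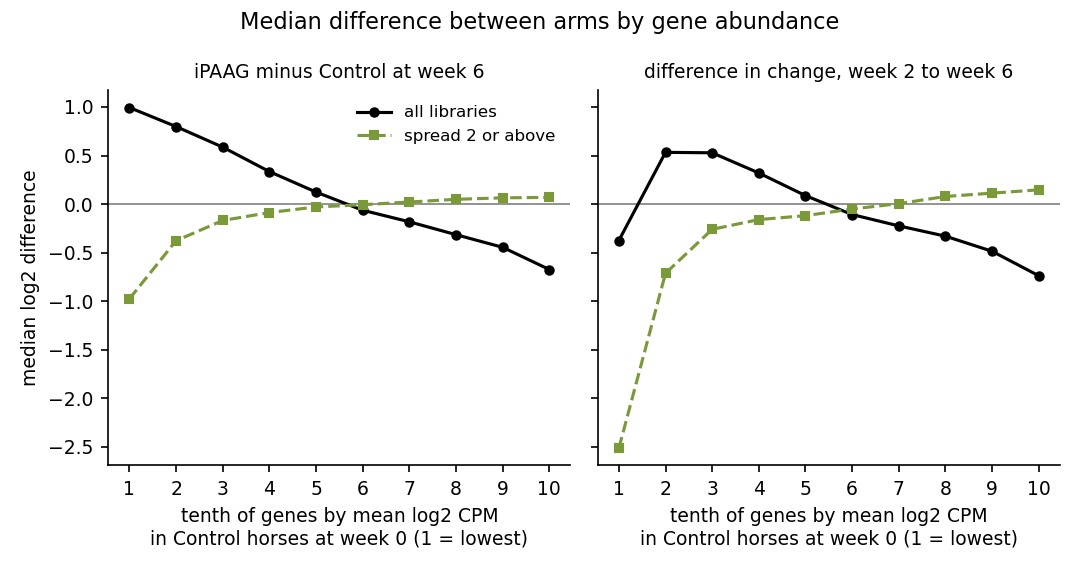
Median log2 difference between arms (vertical axis) in 10 groups of genes ordered by their mean log2 CPM in Control horses at week 0, for the week 6 difference (left) and for the difference in change from week 2 (right); black circles use all libraries and green squares those of spread 2 or above. The week 6 line runs from 0.99 to -0.67 with all libraries and from -0.98 to 0.07 without the narrow ones.

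No gene passed the test for a difference between iPAAG and Control horses at week 6. The test was a limma model of all 93 libraries with 1 mean per arm and week and horse as a random block, adjusted by Benjamini-Hochberg over 15838 genes, and a gene with an adjusted p below 0.05 is described as called. With all libraries 0 genes were called (0% of those tested), the smallest adjusted p was 0.423, and 1824 genes had an unadjusted p below 0.05. Without the narrow libraries 0 genes were called (0%), the smallest adjusted p was 0.366, and 988 had an unadjusted p below 0.05. In a fit of the 23 narrow libraries of all weeks, the week 6 contrast of 4 iPAAG with 2 Control libraries called 0 genes.

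These counts do not show that the arms were alike. The median 95% interval of a gene's log2 difference reached 0.78 to either side with all libraries and 0.69 without the narrow ones. The interval lay wholly between -1 and 1, so that a difference of 1 log2 unit fell outside it, for 5694 genes (36.0%) with all libraries and for 7979 genes (50.4%) without the narrow ones. For the other genes a difference of that size or larger was within the interval. Each interval used 1 variance per gene from all arms and weeks. It can therefore be too narrow where week 6 libraries varied more than others. Fitting weeks 2 and 6 alone raised the SE of each gene named below. With all libraries it went from 0.39 to 0.42, 0.34 to 0.42, 0.58 to 0.63 and 1.03 to 1.21. Leaving out iPAAG horse 12 from the wide libraries called 10 genes. Weighting all libraries by a quality that limma estimated from the fit itself called 11310, 5878 higher and 5432 lower in iPAAG. Among the genes named below, that weighted fit gave -0.32 for ENSECAG00000009572, 0.93 for ENSECAG00000030644 and 1.42 for ENSECAG00000036814. Those signs were the ones found in narrow libraries alone and opposite to those in wide libraries. ENSECAG00000022310, at 1.15, was positive in each of these fits. The reason was not tested.

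Named genes are the 2 in each direction with the smallest unadjusted p at week 6 among wide libraries, with a mean of at least 1 log2 CPM and the same sign in all libraries. They were picked on that contrast, so their week 6 values are a description. ENSECAG00000022310 had the smallest unadjusted p of those higher in iPAAG horses. Its week 6 level in the wide iPAAG libraries was 4.31 log2 CPM in horse 3, 4.27 in horse 5, 3.58 in horse 12 and 2.95 in horse 14, and in the narrow ones 3.08 in horse 6, 3.13 in horse 7, 3.42 in horse 8 and 2.82 in horse 17. In the wide Control libraries it was 1.94 in horse 1, 1.81 in horse 10, 1.99 in horse 11, 2.25 in horse 13, 0.15 in horse 15 and 1.01 in horse 16, and in the narrow ones 3.53 in horse 2 and 2.56 in horse 9. The wide libraries of the arms did not overlap, and the narrow Control libraries reached into the iPAAG range. The log2 difference was 1.54 ± 0.39 (SE, limma adjusted p = 0.423) with all libraries, 2.23 ± 0.52 (SE, limma adjusted p = 0.366) without the narrow ones and 0.07 ± 0.29 (SE, limma adjusted p = 0.913) within the narrow ones alone. Quantile normalisation of all libraries lowered the week 6 difference to 0.76 ± 0.75 (SE, limma adjusted p = 0.512).

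Against its own week 2 library, every iPAAG horse had a higher level of ENSECAG00000022310 at week 6. The week 2 levels were 2.07 in horse 3, 1.86 in horse 5, 2.44 in horse 6, 1.75 in horse 7, 0.59 in horse 8, 2.11 in horse 12, 2.49 in horse 14 and 2.73 in horse 17. Control horses had started at 4.33 in horse 1, 1.98 in horse 2, 1.45 in horse 9, 1.73 in horse 10, 3.35 in horse 11, 3.21 in horse 13, 3.74 in horse 15 and 3.81 in horse 16. The level thus rose in 8 of 8 iPAAG horses, by 0.09 to 2.83, and moved by -3.59 to 1.55 in Control horses, with 5 of 8 lower. By its week 0 level the gene belongs to the fourth abundance group. With all libraries the median change of that group was 0.64 in iPAAG and 0.16 in Control horses. The gene's iPAAG change was 1.44 ± 0.39 (SE, limma adjusted p = 0.0188). Quantile normalisation of all libraries lowered it to 0.24 ± 0.73 (SE, limma adjusted p = 0.807). With all libraries the difference in change was not called, at 2.48 ± 0.54 (SE, limma adjusted p = 0.189). After quantile normalisation of all libraries it was 1.43 ± 1.03 (SE, limma adjusted p = 0.378). Without the narrow libraries it was called, at 3.41 ± 0.65 (SE, limma adjusted p = 0.0174). Part of that difference lay at week 2, where the wide iPAAG libraries averaged 1.94 ± 0.68 log2 CPM (SD, n = 7) and the wide Control libraries 3.12 ± 1.04 (SD, n = 7). Leaving out each horse in turn from the wide libraries kept it between 3.03 and 3.69 and kept the call in 12 of 16 fits, all except those without iPAAG horse 3 or 5 or Control horse 15 or 16. The gene rests on 49 to 344 reads per iPAAG library and 16 to 144 per Control library at week 6.

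In the weeks on either side, the arms overlapped in ENSECAG00000022310 among wide libraries. At week 4 the wide iPAAG libraries averaged 3.26 ± 0.96 log2 CPM (SD, n = 3) and Control 3.03 ± 0.94 (SD, n = 7), and at week 8 they averaged 1.96 ± 0.33 (SD, n = 6) and 2.26 ± 0.92 (SD, n = 7). The limma difference without the narrow libraries was 0.26 ± 0.55 (SE, adjusted p = 0.897) at week 4 and -0.31 ± 0.45 (SE, adjusted p = 0.686) at week 8.

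The other gene of higher level, ENSECAG00000009572, had a positive difference among wide libraries and a negative one among narrow libraries, neither called. At week 6 those stood at 6.99, 6.35, 5.67 and 6.99 log2 CPM in iPAAG horses 3, 5, 12 and 14, and at 5.18 to 5.95 in the 6 Control horses, with 1 iPAAG horse inside the Control range. The narrow iPAAG libraries were lower, at 3.76 to 5.15, and the narrow Control libraries stood at 4.33 and 5.33. The log2 difference was 0.08 ± 0.34 (SE, limma adjusted p = 0.911) with all libraries, 0.99 ± 0.24 (SE, limma adjusted p = 0.366) in wide and -0.52 ± 0.43 (SE, limma adjusted p = 0.624) in narrow libraries. Its difference in change from week 2 was 0.84 ± 0.31 (SE, limma adjusted p = 0.134) without the narrow libraries and -0.27 ± 0.47 (SE, limma adjusted p = 0.814) with them.

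ENSECAG00000030644, the first of the genes of lower level, stood at -1.03, 0.17, -0.18 and -0.99 log2 CPM in the wide libraries of iPAAG horses 3, 5, 12 and 14 at week 6. The 6 wide Control libraries stood at 0.62 to 1.81, with no overlap. The narrow libraries were the highest of both arms, at 2.20 to 3.35 in iPAAG and 2.23 and 2.80 in Control horses. The log2 difference was -0.24 ± 0.58 (SE, limma adjusted p = 0.837) with all libraries, -1.67 ± 0.45 (SE, limma adjusted p = 0.366) in wide and 0.53 ± 0.41 (SE, limma adjusted p = 0.624) in narrow libraries. The weeks that did not enter the choice varied in direction. At week 8 the wide libraries differed by -1.44 ± 0.39 (SE, limma adjusted p = 0.0290), and all libraries by -1.13 ± 0.60 (SE, limma adjusted p = 0.424). At week 4 the difference was -0.00090 ± 0.48 (SE, limma adjusted p = 0.9996) in wide libraries and was called the other way with all libraries, at 1.45 ± 0.61 (SE, limma adjusted p = 0.0412). At week 10 it was -0.50 ± 0.57 (SE, limma adjusted p = 0.9997) in wide and 1.09 ± 0.58 (SE, limma adjusted p = 0.126) in all libraries. The gene rests on 6 to 18 reads in the wide iPAAG libraries of week 6.

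ENSECAG00000036814 had no read in iPAAG horses 3 and 5 at week 6, where its deposited values were -5.12 and -5.04, and 9 and 30 reads in horses 12 and 14, at -0.57 and 1.24. The wide Control libraries had 18 to 87 reads, at -0.22 to 2.61 log2 CPM. In narrow libraries the gene was high in both arms, at 3.81 to 4.53 in iPAAG and 2.98 and 3.63 in Control horses. The log2 difference was -1.01 ± 1.03 (SE, limma adjusted p = 0.617) with all libraries, -3.57 ± 0.97 (SE, limma adjusted p = 0.366) in wide and 0.81 ± 0.38 (SE, limma adjusted p = 0.624) in narrow libraries. Its difference in change was called without the narrow libraries, at -4.59 ± 1.23 (SE, limma adjusted p = 0.0467), and in 4 of the 16 fits that left out 1 horse more. With all libraries it was -1.86 ± 1.43 (SE, limma adjusted p = 0.514). Where a library has no read, the value depends on the 0.5 reads added before the logarithm. With 5 reads added to all libraries, the week 6 difference was -0.19 ± 0.81 (SE, limma adjusted p = 0.887). The difference in change was then -0.95 ± 1.13 (SE, limma adjusted p = 0.705). Wide libraries alone were not fitted with 5 reads added.

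**Figure D3:**
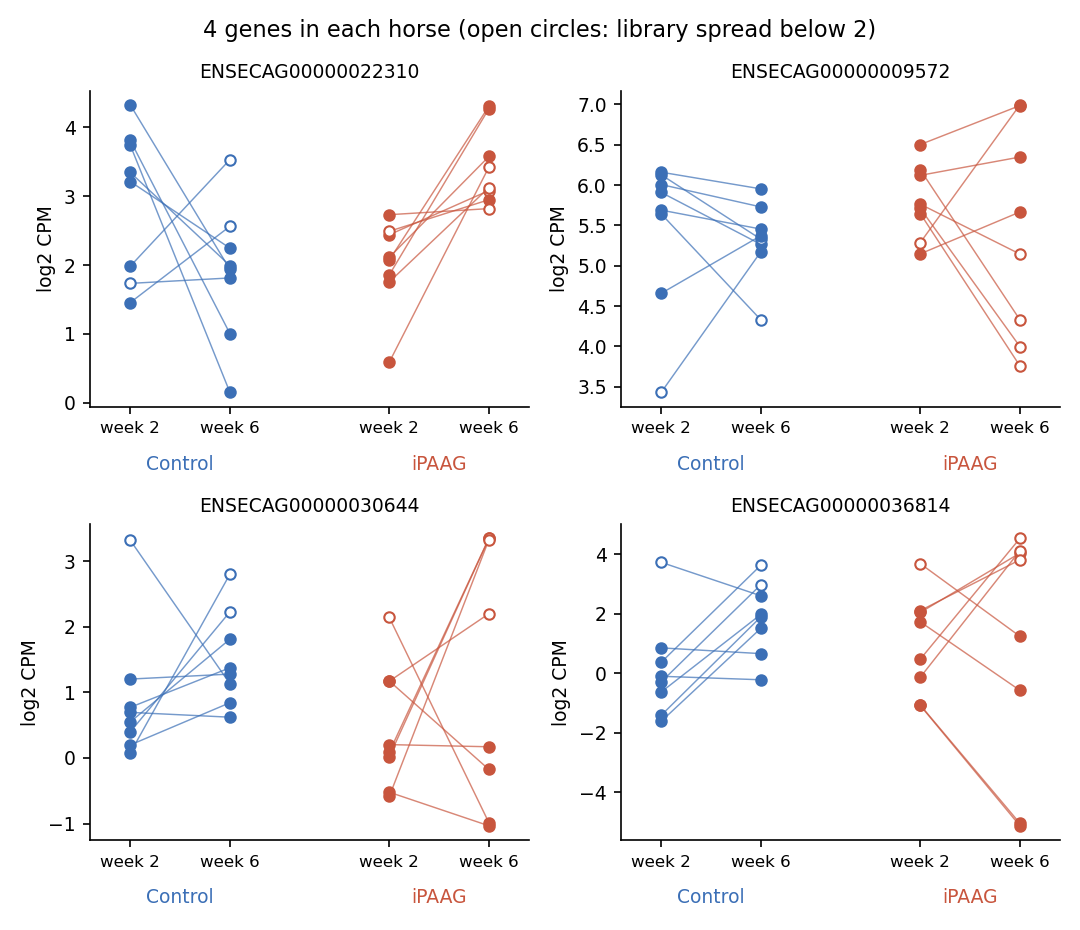
Log2 CPM of the 4 named genes at weeks 2 and 6 (vertical axes), with a line per horse, Control in blue and iPAAG in red; open circles are libraries of spread below 2. For ENSECAG00000022310 all 8 iPAAG lines rise, and for ENSECAG00000030644 and ENSECAG00000036814 the open circles are the highest of their arm and week.

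Between week 2 and week 6 both arms changed, and the counts depended on the narrow libraries in opposite ways. In iPAAG horses 2394 genes were called with all libraries (15.1% of those tested), 424 higher and 1970 lower at week 6. Without the narrow libraries 160 were called (1.01%), 101 higher and 59 lower. In Control horses 529 genes were called with all libraries (3.34%), 197 higher and 332 lower, and 2068 without the narrow ones (13.1%), 844 higher and 1224 lower. After quantile normalisation of all libraries the splits were 643 higher and 1605 lower in iPAAG and 114 higher and 326 lower in Control horses. These counts do not compare the arms, which is the purpose of the difference in change.

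Single horses set these counts. With all libraries the iPAAG count was 21, 34 and 63 without horses 7, 6 and 8, whose libraries became narrow, and 977, 4293 and 7502 without horses 17, 12 and 14. The Control count was 64, 216, 252 and 253 without horses 15, 16, 2 and 13, and 1172 without horse 10. Among wide libraries the iPAAG count was 21 and 31 without horses 3 and 5 and 1104 without horse 14, and the Control count 305, 921 and 1337 without horses 15, 16 and 13. In the lowest of the 10 abundance groups the median change among wide libraries was -1.04 in iPAAG and 1.44 in Control horses, and in the highest 0.00 and -0.16. The mean spread of the wide libraries went from 3.17 ± 0.62 (SD, n = 7) at week 2 to 3.42 ± 0.18 (SD, n = 4) at week 6 in iPAAG and from 3.51 ± 0.14 (SD, n = 7) to 3.17 ± 0.55 (SD, n = 6) in Control horses, in opposite directions.

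The change from week 2 differed between arms for 0 genes with all libraries (0%) and for 144 genes without the narrow ones (0.909%). At an unadjusted limma p below 0.05 the counts were 2548 and 3075. Without the narrow libraries the median difference in change was -2.52 in the lowest abundance group and 0.15 in the highest. With all libraries these medians were -0.38 and -0.74. Across genes, Pearson's r with the slope on spread was 0.57 without the narrow libraries and -0.19 with all. This r has the limits given for the week 6 difference, and the part of spread was not tested. Of the 144 genes, 124 changed more upward in iPAAG than in Control horses, among them ENSECAG00000022310, and 20 changed more downward, among them ENSECAG00000036814. The 124 genes were well expressed, with a median of 5.74 log2 CPM over all 93 libraries against 3.98 for all genes, and all 124 averaged at least 1. The 20 genes were low, with a median of 0.40, and 9 averaged at least 1. The genes were chosen on this contrast, so the values of weeks 2 and 6 below are a description.

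Among wide libraries the arms lay apart in the 124 genes at week 6. At week 2 their ranges overlapped, and the median difference had the other sign. The median level of the 124 genes in a wide Control library went from 5.94 to 7.52 log2 CPM at week 2 down to 4.97 to 5.84 at week 6. In wide iPAAG libraries it went from 5.44 to 6.78 at week 2 up to 6.49 to 7.58 at week 6. The week 6 ranges of the wide libraries did not overlap. Narrow libraries of week 6 stood at 4.56 to 5.11 in iPAAG horses, below the wide ones, and at 5.15 and 5.77 in Control horses, inside the wide range. The median log2 difference between arms, iPAAG minus Control, was -1.05 at week 2 and 1.20 at week 6 among wide libraries.

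In weeks that did not choose them, the 124 genes were not higher in iPAAG horses. Among wide libraries the median log2 difference between arms was -0.16 before surgery at week 0, -0.59 and -0.41 at weeks 4 and 8, and -0.12 at week 10. Over all 15838 genes it was 0.05, -0.13, -0.14 and 0.04. Of the 124 genes, 115 were lower in iPAAG at week 4 and 96 at week 8. The horses of those weeks are the same animals, and the libraries are other ones.

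The 20 genes ran the other way. Their median level in a wide Control library went from -1.87 to -0.48 log2 CPM at week 2 to -0.52 to 2.47 at week 6, and in a wide iPAAG library from -0.27 to 2.38 to -4.33 to 0.80. In narrow libraries of week 6 they stood at 3.86 to 4.42 in both arms, close to the median of all genes there, 4.33 to 4.47. The narrow libraries thus held the highest levels of these genes in both arms. The median log2 difference between arms among wide libraries was 1.70 at week 2 and -2.82 at week 6, the weeks that chose the genes. It was 0.66 at week 0, with 19 of the 20 genes higher in iPAAG, -0.31 and -0.62 at weeks 4 and 8, and 0.10 at week 10.

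**Figure D4:**
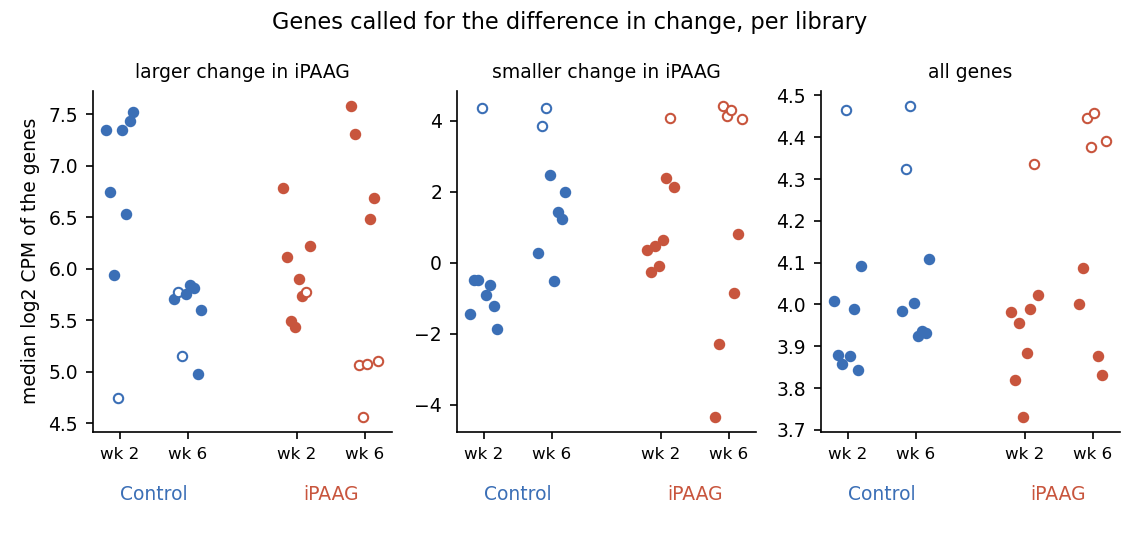
Median log2 CPM per library (vertical axes) at weeks 2 and 6 in Control (blue) and iPAAG (red) horses. On the left are the 124 genes with a more upward change in iPAAG than in Control horses (titled larger change). The 20 with a more downward change (titled smaller change) are in the middle, and all 15838 genes on the right. Open circles are libraries of spread below 2, and points are shifted sideways by horse. Wide Control libraries fall from 5.94 to 7.52 at week 2 to 4.97 to 5.84 at week 6 on the left, and wide iPAAG libraries reach 6.49 to 7.58.

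The count of 144 rested on few libraries. It was 0 without iPAAG horse 3, iPAAG horse 5, Control horse 15 or Control horse 16. It was 1, 3, 2 and 10 without iPAAG horses 6, 7, 8 and 17, which contribute to this fit by week 2 and not by week 6. It was 54 without Control horse 2, 223 without Control horse 1, 362 without iPAAG horse 12 or 14, and 854 without Control horse 9. In the 3 iPAAG and 5 Control horses that were wide at both weeks, so that each horse was compared with itself, 1 gene was called, ENSECAG00000022310 (4.26 ± 0.74, SE, limma adjusted p = 0.0293). With spread as a covariate in the wide libraries, 177 genes were called, and these held 105 of the 124 genes and 8 of the 20. With spread as a covariate in all libraries, 2662 were called, 694 higher and 1968 lower, holding 51 of the 124 and 12 of the 20.

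Directions were steadier than calls. All 124 and all 20 genes kept their sign in each of the 16 fits that left out 1 horse from the wide libraries, in the fit with spread as a covariate there and in the horses wide at both weeks. With all libraries 117 of the 124 and 20 of the 20 had the same sign, and the medians shrank from 2.36 to 1.02 and from -4.78 to -1.99. These fits share most of their libraries with the one that chose the genes for their differences. Kept signs were therefore likely beforehand and are a description.

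Week 6 lay between weeks with more calls. With all libraries the arms differed in 8589 genes at week 4 (54.2% of those tested, 3426 higher and 5163 lower in iPAAG), 133 at week 8 (0.840%), and 0 at weeks 0, 2 and 10 (0% each). Without the narrow libraries the counts were 16 at week 4 (0.101%), 822 at week 8 (5.19%) and 0 at weeks 0, 2 and 10 (0% each). At an unadjusted limma p below 0.05 weeks 0, 2 and 10 had 582, 1051 and 6874 genes with all libraries and 727, 3303 and 284 without the narrow ones. Narrow libraries made up 4 of 7 iPAAG and 0 of 7 Control libraries at week 4, 1 of 7 and 1 of 8 at week 8, and 6 of 8 and 2 of 8 at week 10. A difference of the arm effect between week 6 and weeks 4 or 8 was not tested.

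**Figure D5:**
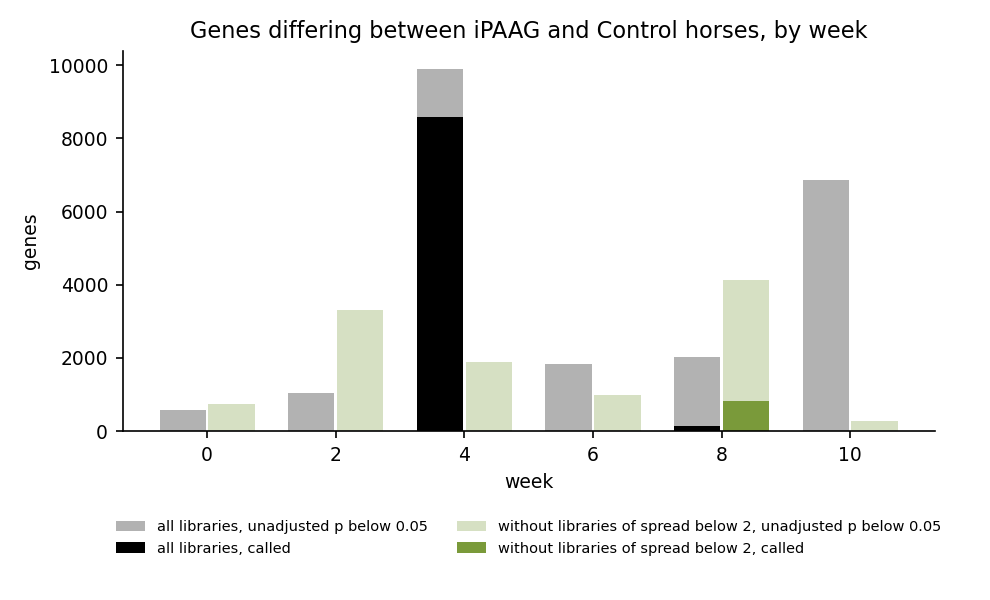
Number of genes (vertical axis) that differed between iPAAG and Control horses at each week, with all libraries (grey, unadjusted p below 0.05, and black, called) and without libraries of spread below 2 (light and dark green). At week 6 the bars of unadjusted p reach 1824 and 988 genes and none is called.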

How the data were processed

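RNA of pelleted, hyaluronidase-treated synovial fluid cells was sequenced with the SMARTer Stranded Total RNA-Seq Pico kit, as the labels' protocols state. STAR 2.7.10b, limma 3.62.2 and the build EquCab3.0 are named in the submitters' processing notes. How reads were counted, with or without strand, on which annotation and with which filter is not given in the sources used here, so genes that overlap or have near copies are uncertain. The authors deposited 1 table of normalised log2 CPM values from voom for 15838 genes in 93 libraries. Each deposited log2 value is a number of whole reads plus 0.5 over a scaled library size: 100% of values came out whole within 0.05 reads. The libraries held 1737741 to 39916655 recovered reads in genes (median 21063527). They are PCR-amplified reads, so counting error is understated, and no count model was run on a log2 table. The table of gene names at hand paired 0 of 15838 identifiers.

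The members, the threshold on spread and the gene rules were chosen with earlier results of these data known. Because no identifier had a name, the rule for named genes took the 2 of smallest unadjusted p in each direction of the week 6 difference without libraries of spread below 2, with a mean of at least 1 log2 CPM and the same sign in all libraries.

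The model, fitted in R 4.3.3 with limma 3.58.1, had 12 arm-by-week means on all 93 libraries (70 without the 23 of spread below 2), horse as a random block (duplicateCorrelation), variances moderated with a trend, and Benjamini-Hochberg adjustment over all genes. Values per library were compared by two-sided exact permutation tests in Python 3.11.15 (numpy 2.4.6, scipy 1.17.1, pandas 2.3.3, matplotlib 3.10.9). Weeks 2 and 6 are paired because they come from the same horse. The limma changes are differences of group means. Their fitted correlation within horse was 0.04 with all libraries and 0.09 without the narrow ones, so they used little of the pairing. As a check, the deviations of the week 2 and week 6 libraries from their group means correlated at a mean of -0.04 over 16 horses with all libraries (-0.76 to 0.74) and at 0.09 over the 8 horses with wide libraries at both weeks. No pair of libraries within a group of weeks 2 and 6 was a duplicate (smallest chi-square per degree of freedom 9.48 over 112 pairs, genes of at least 10 reads). The alternatives were other scalings, filters, weights, sets of libraries and blocks, a spread covariate, and leaving out each horse. Fits of narrow libraries alone, of horses wide at both weeks, and of wide libraries with a spread covariate or without 1 horse were chosen after seeing the data. Sham-operated joints and synovial membrane were not analysed here.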

Additional observations from a re-analysis of the deposited data

Results flagged for a closer look

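Control horse 10 at week 2 lay far from the other 7 Control libraries of that week in 6 of the values examined, by the gap to its nearest neighbour relative to the group's range. Its spread was 1.34, its reads in genes 5355869, its genes detected at a common depth 15812, and the share of its 10 leading genes 3.14%. ENSECAG00000030644 stood at 3.32 log2 CPM and ENSECAG00000036814 at 3.73 in that library. iPAAG horse 14 at week 2 had far fewer reads in genes than its group, 7877238, and iPAAG horse 8 at week 2 had the lowest ENSECAG00000022310, 0.59 log2 CPM. Chance marks about 1 in 20 of such groups, and 32 were examined. These values are related within a library, so the 6 of Control horse 10 describe 1 narrow library and are not separate.

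The change from week 2 to week 6 differed between arms, without libraries of spread below 2, for 144 genes. Among them were ENSECAG00000022310, with a difference in change of 3.41 ± 0.65 log2 (SE, limma adjusted p = 0.0174), and ENSECAG00000036814, with -4.59 ± 1.23 (SE, limma adjusted p = 0.0467). No other gene named here was called for it.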

How the results depend on the processing

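The week 6 difference stayed at 0 called genes in 11 of 12 alternatives, and array weights gave 11310; leaving out a horse gave 0 with all libraries and 0 to 10 among wide libraries. The difference in change, 0 with all libraries, became 144 without narrow libraries, 2662 with spread as a covariate, 7953 with array weights and 1 in horses wide at both weeks. Leaving out a horse gave 0 to 1188 with all libraries (1 without Control horse 2, 60 without Control horse 9 and 1188 without iPAAG horse 14) and 0 to 854 among wide ones. The iPAAG change became 160 without narrow libraries, 7 in weeks 2 and 6 fitted alone, 209 with voom weights, 12546 with array weights and 113 in horses wide at both weeks. Its counts ran from 21 to 7502 without a horse, and from 21 to 1104 among wide libraries. The Control change became 2068, 158, 305, 5063 and 1987 under the same settings and 1837 with the spread covariate, with 64 to 1172 without a horse and 305 to 3023 among wide libraries. The causes were not tested. Horse as a fixed replicate block gave 0 genes for the difference in change, 2421 for the iPAAG and 611 for the Control change, and no replicate block gave 0, 1975 and 434, so the paired fits changed none of these counts by over 1.5 times. The week 6 difference cannot be estimated with the fixed block.

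Among measures per library, leaving out narrow libraries reversed the iPAAG minus Control difference in week 6 spread (0.25), genes detected (-472) and the changes in spread (0.64) and reads (1594640), none past the threshold before or after. Without a horse the difference in genes detected ran from -33.4 to 360, its change from -666 to 86.7 and the change in spread from -0.41 to 0.19. The difference in the share of the 10 leading genes ran from -4.14 to -2.50 points without a horse, and its change from -5.64 to -3.36. Without iPAAG horse 5, 12 or 14 or Control horse 9 the first had an unadjusted exact permutation p of 0.0230 to 0.0482, and without iPAAG horse 14 the second had 0.0218. At a threshold of 3 on spread, 4 iPAAG and 5 Control libraries fell below it, a difference of -1.

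Reversed values of named genes at week 6 were, for ENSECAG00000009572, -0.020 (median centring), -0.36 (quantile), -0.32 (array weights), -0.52 (narrow libraries) and, without a horse, -0.15 to 0.31. They were 0.93 (array weights), 0.53 (narrow) and, without a horse, -0.53 to 0.093 for ENSECAG00000030644 and 1.42 and 0.81 for ENSECAG00000036814. Reversed differences in change were 0.84 (wide), 0.54 (wide at both weeks), 0.77 (wide with covariate) and, without a horse, -0.57 to 0.0015 for ENSECAG00000009572. They were -1.36, -1.13 and -1.15 in the same sets, -0.16 (voom weights) and, without a horse, -0.24 to 0.77 for ENSECAG00000030644, and 0.41 (array weights) for ENSECAG00000036814. Low genes rest on few reads: at week 6, 11 to 1495 genes had no read in a wide library and 4 to 45 in a narrow one.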
